A study of Homo sapiens with 11 samples.

Results

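Interferon response genes are 42 genes that cells switch on in answer to interferon, the antiviral cytokine, or that carry its signal. They were taken by symbol from the RNA-seq tables of 2 human lung cancer cell lines. All 42 were found among the 21316 genes of the A549 table and 40 among the 20915 genes of the H1299 table. MX2 and CXCL10 were analysed in A549 only. A549 and H1299 are established lines from human lung tumours, the first from an adenocarcinoma and the second from a large cell carcinoma. Each line gave 2 libraries of cells with a short hairpin RNA against METTL3 (shMETTL3, numbered 1 and 2) and 1 library of cells with a hairpin against green fluorescent protein (shGFP). METTL3 is the catalytic subunit of the enzyme that places N6-methyladenosine (m6A) on mRNA. All cells grew in DMEM with serum and antibiotics, and no interferon treatment is named in the labels. Basal level here means the level in shGFP cells, which carry a hairpin themselves. Nothing in the labels tells if numbers 1 and 2 are separate hairpins or separate cultures, so that p-values cover only the spread between these libraries, which may be technical. The question put to the data was how high each gene stood in each line and how far it stood from shGFP in each knockdown library.

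Cells sense foreign or displaced RNA through the RIG-I-like receptors, which lead to the making of type I interferon. Interferon binds its receptor, the kinases JAK1 and TYK2 pass the signal on, and STAT2 joins IRF9 in the complex ISGF3. ISGF3 binds the interferon-stimulated response element (ISRE) in promoters, and the genes it switches on encode proteins that block viral entry, degrade viral RNA, tag proteins with the ubiquitin-like ISG15 or feed antigen presentation. Epithelial cells keep many of these genes at a low tonic level without added interferon.

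The deposited values are reads per gene divided by 1 factor per library, called normalised values here, and are not corrected for gene length, so that no levels are ranked between genes. The reads assigned to genes numbered 14447379 and 16504759 in A549 shMETTL3 libraries 1 and 2 and 19966206 in A549 shGFP, and 23099169 and 25443078 in H1299 shMETTL3 libraries 1 and 2 and 26351309 in H1299 shGFP. One read was worth between 0.196 and 0.357 units. METTL3 stood at 231 and 232 in A549 shMETTL3 libraries 1 and 2 and at 557 in shGFP, and at 123 and 100.2 in H1299 shMETTL3 libraries against 271 in shGFP, so that all 4 knockdown libraries lay below their control. Over both lines limma gave METTL3 a log2 change of -1.27 (SE 0.13, adjusted p = 0.139). The ribosomal RNA precursor RNA45S5 took 20.5 to 25.4% of the H1299 reads and 0.208 to 0.284% of the A549 reads. The leukocyte marker PTPRC had at most 0.7 units in any library. The summed leukocyte list stood at 221 and 208 in A549 shMETTL3 libraries 1 and 2, against 195 in shGFP, and at 278 and 253 in H1299 shMETTL3 libraries against 263 in shGFP, carried by CD68 and LYZ. Of 10 markers of lung epithelial cancer cells, 8 in A549 and 7 in H1299 had a mean of at least 1. Their sum was 48357 and 42393 in A549 shMETTL3 libraries 1 and 2, against 43295 in shGFP, and 19079 and 14825 in H1299 shMETTL3 libraries 1 and 2, against 16557 in shGFP. In H1299 VIM and KRT18 made up most of it, KRT19 was at 0 in every library and CDH1 stood between 1 and 1.1. Fibroblast markers summed to 103.6 and 78.1 in A549 shMETTL3 libraries 1 and 2, against 62.6 in shGFP, and to 32.4 and 35.2 in H1299 shMETTL3 libraries 1 and 2, against 13.7 in shGFP. COL1A1 carried these sums, at 91.8 and 72.2 against 59.7 in A549 and at 30 and 32.2 against 12.5 in H1299. COL1A2 had at most 0.26 units in any library. The part of these marker sums in the results below was not tested, and in bulk RNA fewer cells of a type and less RNA per cell cannot be told apart.

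The promoters of the members are shown first, because many of them hold the ISRE that ISGF3 binds. RefSeq promoters on GRCh38.p14, from 250 bases before to 50 bases after the transcript start, were matched to 33 of the 42 members. DHX58, IRF7, USP18, IFIT2, OAS2, OASL, MX2, IFITM2 and TRIM22 were not matched. The letters GAAANNGAAA, searched on both strands, occurred in at least 1 promoter of 24 of the 33 members, or 72.7%, whereas 1195 of 27305 genes, or 4.38%, held them in a promoter of the same length. Some genes have several promoters, and by promoter the shares were 28 of 42 for the members (66.7%) and 1255 of 35116 for all genes (3.57%). The 6 sequences below each cover the 200 bases up to the base before the start. They show 3 members whose values stood above shGFP in all 4 knockdown libraries (IFIH1, IFIT1, IFI6) and 1 such member without the motif (STAT2). They also show a member with opposite sides in the lines (HERC5) and a member higher in library 1 than in library 2 in both lines (IFITM3). Bases are written 5′ to 3′ in the direction of the gene, and capitals mark matches to the motif, which on the opposite strand read TTTCNNTTTC.
IFIH1 (chr2:162318685-162318884, minus strand): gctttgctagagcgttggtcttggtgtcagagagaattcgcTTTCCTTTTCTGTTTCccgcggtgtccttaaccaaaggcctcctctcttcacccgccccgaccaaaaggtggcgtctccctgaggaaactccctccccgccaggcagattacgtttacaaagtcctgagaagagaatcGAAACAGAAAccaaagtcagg
IFIT1 (chr10:89392423-89392622, plus strand): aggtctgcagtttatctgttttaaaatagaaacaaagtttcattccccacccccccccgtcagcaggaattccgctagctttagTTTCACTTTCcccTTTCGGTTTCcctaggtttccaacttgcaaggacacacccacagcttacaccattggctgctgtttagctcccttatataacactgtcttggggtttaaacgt
IFI6 (chr1:27672193-27672392, minus strand): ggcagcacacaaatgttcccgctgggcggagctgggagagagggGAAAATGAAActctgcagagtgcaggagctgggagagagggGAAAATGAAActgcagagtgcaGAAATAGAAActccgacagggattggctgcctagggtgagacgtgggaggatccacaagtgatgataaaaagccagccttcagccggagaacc
STAT2 (chr12:56360108-56360307, minus strand): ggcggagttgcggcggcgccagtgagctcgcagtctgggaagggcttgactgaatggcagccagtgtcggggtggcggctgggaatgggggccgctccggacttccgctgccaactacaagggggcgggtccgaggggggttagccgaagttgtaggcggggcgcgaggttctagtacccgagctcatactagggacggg
HERC5 (chr4:88456919-88457118, plus strand): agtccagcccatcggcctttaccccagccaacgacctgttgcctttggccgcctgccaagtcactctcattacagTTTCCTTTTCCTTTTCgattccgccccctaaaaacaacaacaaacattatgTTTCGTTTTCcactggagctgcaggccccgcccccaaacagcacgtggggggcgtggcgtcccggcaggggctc
IFITM3 (chr11:320861-321060, minus strand): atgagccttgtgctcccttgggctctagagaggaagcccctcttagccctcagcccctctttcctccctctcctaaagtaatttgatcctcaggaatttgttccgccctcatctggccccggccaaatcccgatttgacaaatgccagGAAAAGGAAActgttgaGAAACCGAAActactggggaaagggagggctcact

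In IFIT1 the matches began at bases -116 and -103, in IFI6 at -156, -115 and -93, and in IFITM3 at -52 and -35. IFIH1 held a pair that overlapped at -159 and -153 and a single match at -21, and HERC5 held an overlapping pair at -125 and -119 and a match at -74. The STAT2 window held no match to these letters. A match is a description of letters and not a measured binding site. Of the measured members with a match, 8 of 21 in A549 and 10 of 19 in H1299 stood above shGFP in both knockdown libraries, and of those without a match 6 of 9 and 4 of 8. Among all genes 27.2% in A549 and 30.6% in H1299 did so. The median log2 differences of the members in libraries 1 and 2 were 0.35 and -0.02 with a match and 0.15 and 0.14 without in A549, and 0.38 and 0.14 with a match and 0.32 and 0.15 without in H1299.

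**Figure D1:**
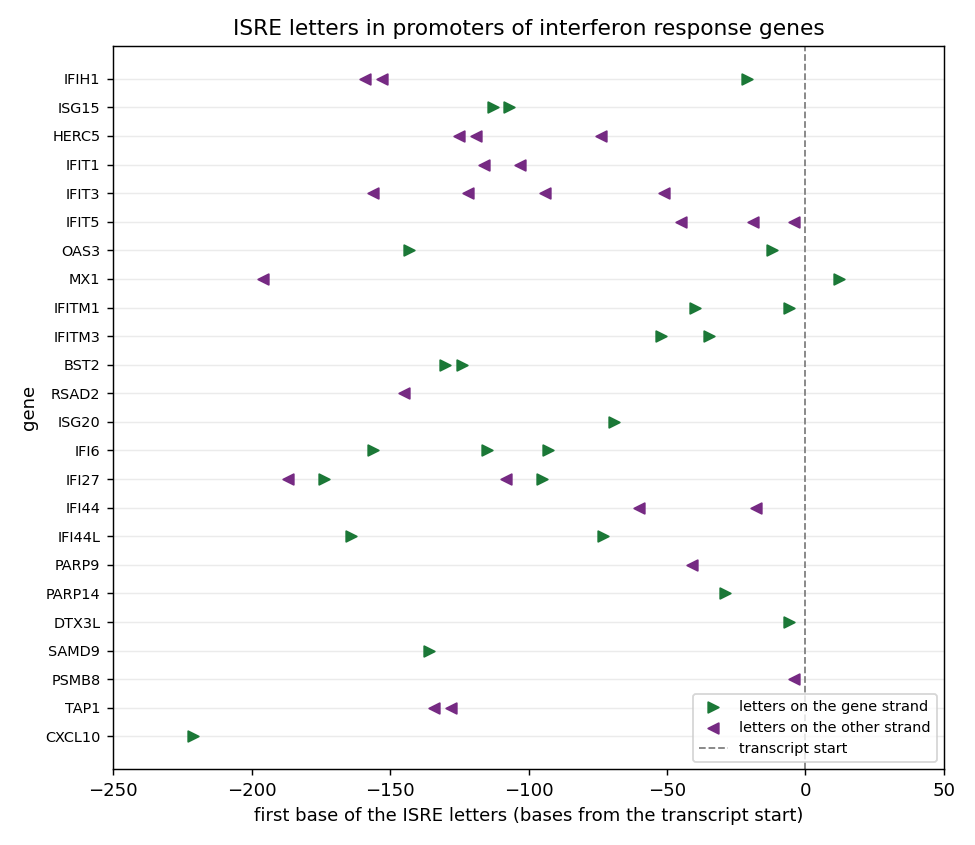
Distance of each match to the ISRE letters from the transcript start, in bases, for the members with a match, with the promoters of a gene placed from their own starts; each triangle is 1 match, pointing right where the letters read on the strand of the gene and left where they read on the other, and each line down the page is 1 gene. In IFIT1 the 2 matches begin at -116 and -103, and in IFITM3 at -52 and -35.

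In A549 most members stood above shGFP in shMETTL3 library 1, while in library 2 the share was close to that of all genes. Of 38 members with a mean of at least 1, 31 stood above shGFP in library 1 (81.6%), against 52.2% of all genes tested, and 20 stood above it in library 2 (52.6%), against 47.7%. In both libraries 17 were higher (44.7%), where 27.2% of all genes were, 4 were lower (DHX58, HERC5, IFIT5 and ISG20), where 27.2% were, and 17 lay on opposite sides of shGFP, where 45.4% did. The median log2 difference from shGFP, on log2(value + 1), was 0.36 in library 1 and 0.07 in library 2, beside 0.02 and -0.01 for all genes. In H1299, of 32 such members, 25 stood above shGFP in library 1 (78.1%), against 61.7% of all genes, and 23 in library 2 (71.9%), against 43.3%. In both libraries 18 were higher (56.3%), where 30.6% of all genes were, 2 were lower (IRF1 and RSAD2), where 24.5% were, and 11 lay on opposite sides, where 42.7% did. The H1299 medians were 0.37 and 0.17, beside 0.09 and -0.04 for all genes. The 2 knockdown libraries of a line share 1 control library, so that a low or high shGFP value moves both.

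No member was called against shGFP at an adjusted p under 0.05. Within a line the tests called no gene at all, the knocked-down target METTL3 included (limma unadjusted p = 0.0016 in A549 and 0.0030 in H1299). They therefore cannot show that the members were unchanged. At an adjusted p under 0.05 limma called 0 of 38 members in A549 and 0 of 32 in H1299, where it called 0% of all genes in each line. At an unadjusted p under 0.05 it called 0 members in either line, where 0.659% of all genes in A549 and 0.601% in H1299 were called. On the recovered reads of A549, edgeR and DESeq2 also called 0 members and 0% of all genes. At an unadjusted p under 0.05 edgeR called 1 of 38 members (ISG20) and 0.791% of all genes, and DESeq2 called 0 members and 0.327% of all genes. With both lines in 1 fit, limma called 0 of 32 members and 0% of all genes. At an unadjusted p under 0.05 it then called 3 members, STAT2, IFIT2 and PSMB8, where 2.41% of all genes were called.

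**Figure D2:**
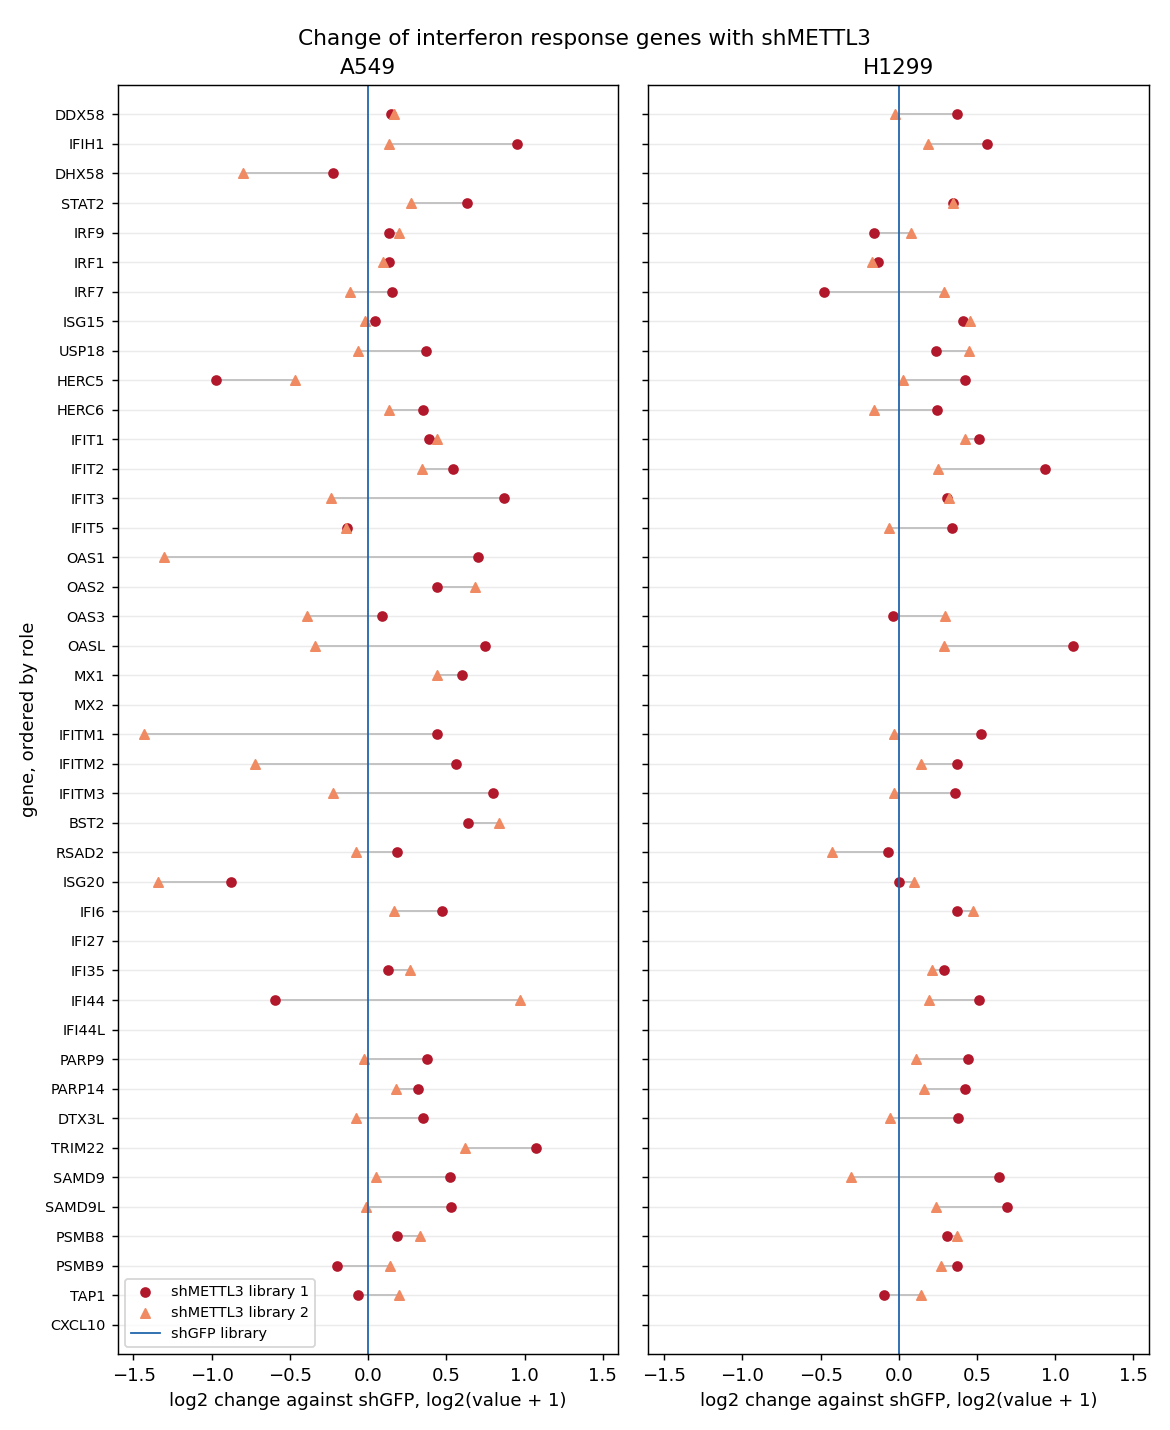
Log2 difference from shGFP on log2(value + 1) for every measured member in shMETTL3 libraries 1 and 2, for A549 and H1299; each point is 1 library and members are grouped by role. The A549 medians lie at 0.36 in library 1 and 0.07 in library 2, the H1299 medians at 0.37 and 0.17, and OAS1 and IFITM1 in A549 lie on opposite sides of 0.

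The members that stood above shGFP in all 4 knockdown libraries numbered 8 of 32 (25%), where 10.5% of all genes did, and 0 stood below it in all 4, where 9.05% did. They were the RNA sensor IFIH1, the signalling factor STAT2, IFIT1, IFIT2, IFI6, IFI35, PARP14 and PSMB8. They have different roles, and their distances from shGFP ran from 0.13 to 0.95 on the log2 scale.

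Among the sensors, IFIH1 encodes MDA5, the receptor for long double-stranded RNA. It stood at 55.4 and 30.9 in A549 shMETTL3 libraries 1 and 2, against 28.2 in shGFP, and at 182 and 139 in H1299 shMETTL3 libraries, against 122 in shGFP. All 4 knockdown libraries lay above their control, with library 1 further above it in each line (log2 0.95 and 0.13 in A549, 0.57 and 0.19 in H1299). DDX58 encodes RIG-I, the receptor for RNA with a 5′ triphosphate, and had 98.9 and 100.3 in A549 shMETTL3 libraries against 89.2 in shGFP, and 42.7 and 32.2 in H1299 shMETTL3 libraries against 32.7 in shGFP. H1299 library 2 was level with its control and the other 3 knockdown libraries stood above theirs. DHX58, whose product LGP2 modulates the other sensors, was near the detection limit at 1.43 and 0.63 in A549 shMETTL3 libraries against 1.84 in shGFP, and at 1.1 and 1 in H1299 shMETTL3 libraries against 0.6 in shGFP.

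Of the transcription factors, STAT2 is the subunit that gives ISGF3 its activation domain. It stood at 136 and 106 in A549 shMETTL3 libraries 1 and 2, against 87.6 in shGFP, and at 145 in both H1299 knockdown libraries, against 114 in shGFP. The limma change over both lines was 0.40 (SE 0.14, adjusted p = 1), higher in all 4 knockdown libraries. IRF9, the DNA-binding partner in ISGF3, stood at 103 and 108 in A549 shMETTL3 libraries against 94.2 in shGFP, and at 34.9 and 41.2 in H1299 shMETTL3 libraries against 39 in shGFP, on both sides of the control. IRF1, which also acts after interferon gamma, was above its control in both A549 libraries (255 and 248, against 233 in shGFP) and below it in both H1299 libraries (145 and 141, against 159 in shGFP). The difference of these changes, H1299 minus A549, was -0.27 (SE 0.28, adjusted p = 1 by limma), and 5.11% of all genes had this pattern of sides. IRF7, which amplifies type I interferon production, had 10.4 and 8.44 in A549 shMETTL3 libraries against 9.21 in shGFP, and 13.1 and 23 in H1299 shMETTL3 libraries against 18.6 in shGFP, with no common side.

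The ISG15 system joins ISG15 to proteins and removes it again. ISG15 itself stood at 158 and 163 in H1299 shMETTL3 libraries 1 and 2, against 119 in shGFP, and at 27.1 and 25.9 in A549, against 26.3 in shGFP. The H1299 libraries thus lay above their control by 0.41 and 0.45 on the log2 scale, while the A549 libraries were within 0.04 of theirs. USP18, the protease that removes ISG15 and damps the receptor, had 144 and 106 in A549 shMETTL3 libraries against 111 in shGFP, and 100 and 116 in H1299 shMETTL3 libraries against 84.5 in shGFP, though its reads may be shared with its near copy USP41. HERC5, the main ligase for ISG15, had 50.4 and 71.9 in A549 shMETTL3 libraries, both below the 99.7 of shGFP. In H1299 HERC5 had 146 and 111 in shMETTL3 libraries, on the other side of 108 in shGFP, with library 2 nearly level (log2 0.03). Its change was 0.95 (SE 0.43) greater in H1299 than in A549 (adjusted p = 1 in limma's interaction term), and 6.58% of all genes had this pattern of sides. The interaction term called 0 of 32 members and 0% of all genes, and at an unadjusted p under 0.05 it called 0 members and 0.315% of all genes. HERC6, its neighbour and relative, showed no such split, with 64.6 and 55.6 in A549 shMETTL3 libraries against 50.5 in shGFP, and 46.2 and 34.6 in H1299 shMETTL3 libraries against 38.8 in shGFP.

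The activating and conjugating enzymes of ISG15 are not members but belong to the same system. UBA7, the E1 enzyme, stood at 10.7 and 5 in A549 shMETTL3 libraries 1 and 2, against 2.37 in shGFP (30, 16 and 9 reads). The limma change was 1.31 (SE 0.58, adjusted p = 1). In H1299 it stood at 8.2 and 9.8 in shMETTL3 libraries, against 5.9 in shGFP. UBE2L6, the E2 enzyme, stood at 64 and 63.2 in H1299 shMETTL3 libraries, against 39.2 in shGFP, a limma change of 0.68 (SE 0.26, adjusted p = 1), but at 87.1 and 162 in A549 shMETTL3 libraries, against 104 in shGFP. UBA7 therefore lay above its control in all 4 knockdown libraries, where 10.5% of all genes did so, and UBE2L6 in 3 of 4.

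The IFIT family takes part in the recognition of foreign RNA by its 5′ end. IFIT1 stood at 9.64 and 10 in A549 shMETTL3 libraries 1 and 2, against 7.11 in shGFP, and at 12.4 and 11.6 in H1299 shMETTL3 libraries, against 8.4 in shGFP, so that the 4 libraries lay above control by a like amount (log2 0.39 to 0.51). IFIT2 had 35 and 30.3 in A549 shMETTL3 libraries against 23.7 in shGFP, and 62.9 and 38.8 in H1299 shMETTL3 libraries against 32.4 in shGFP. Its limma change over both lines was 0.52 (SE 0.22, adjusted p = 1), with all 4 knockdown libraries above control. IFIT3, the partner of IFIT1, had 26.8 and 11.9 in A549 shMETTL3 libraries on the 2 sides of 14.2 in shGFP, and 20.2 and 20.4 in H1299 shMETTL3 libraries against 16.1 in shGFP. IFIT5 had 193 and 192 in A549 shMETTL3 libraries, both below the 212 of shGFP, and 90.9 and 68.6 in H1299 shMETTL3 libraries against 71.6 in shGFP.

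The OAS proteins make the second messenger that activates RNase L. OAS1 separated the A549 libraries. It had 142.5 in shMETTL3 library 1 and 34.7 in library 2, on opposite sides of 87.4 in shGFP (log2 0.70 and -1.31), from 399, 111 and 332 reads. The mean change of -0.30 (SE 0.85, adjusted p = 1 by limma) describes neither library, and on the recovered reads it was 0.01 by edgeR and by DESeq2. In H1299 it had 1 read in each shMETTL3 library and 0 in shGFP. OAS3, the largest protein of the family, had 1197 and 857 in A549 shMETTL3 libraries against 1126 in shGFP, and 466 and 587 in H1299 shMETTL3 libraries against 479 in shGFP, with libraries on both sides. OASL, which lacks the synthetase activity, had 6.43 and 2.5 in A549 shMETTL3 libraries against 3.42 in shGFP, and 2.9 and 1.2 in H1299 shMETTL3 libraries against 0.8 in shGFP. OAS2 had at most 1.88 units in any library.

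The MX proteins are GTPases that trap viral particles. MX1 had 16 reads in each A549 shMETTL3 library and 13 in shGFP, or 5.71 and 5 units against 3.42 in shGFP, and 0 and 4 reads in H1299 shMETTL3 libraries against 3 in shGFP. MX2 had 0.71 and 0.31 units in A549 shMETTL3 libraries and 0.79 in shGFP. All of these values rest on at most 16 reads.

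The membrane proteins IFITM1, IFITM2 and IFITM3 block the fusion of enveloped viruses. IFITM3 stood at 52.5 and 25.3 in A549 shMETTL3 libraries 1 and 2, against 29.7 in shGFP, and at 320.2 and 244 in H1299 shMETTL3 libraries, against 249 in shGFP. IFITM2 stood at 220.0 and 89.7 in A549, against 148 in shGFP, and at 109.8 and 93.4 in H1299 shMETTL3 libraries, against 84.5 in shGFP. IFITM1 stood at 22.1 and 5.31 in A549, against 16.1 in shGFP, and at 59.6 and 40.2 in H1299 shMETTL3 libraries, against 41 in shGFP. In both lines library 1 lay above the control for all 3 genes, and in A549 library 2 lay below it for all 3. These genes are near copies of each other in 1 cluster, and reads may have been split or shared between them. BST2, the tether of budding virions, had 5 and 7 reads in A549 shMETTL3 libraries and 3 in shGFP, and 1 and 3 reads in H1299 shMETTL3 libraries against 0 in shGFP.

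ISG20, an exonuclease for RNA, was below its control in A549, at 6.43 and 4.38 in shMETTL3 libraries 1 and 2, against 12.6 in shGFP (18, 14 and 48 reads). The limma change was -1.11 (SE 0.44, adjusted p = 1), and in H1299 it had 1.8 and 2 in shMETTL3 libraries against 1.8 in shGFP. It was 1 of 3 members at least 1.5-fold from shGFP the same way in both A549 libraries. The other two were higher, TRIM22 and BST2, where 1.66% of all genes were higher and 0.779% lower by that rule. In H1299 0 members passed it in either direction, where 1.2% of genes were higher and 0.48% lower. RSAD2, or viperin, which makes a chain-terminating nucleotide, had 11.8 and 9.69 in A549 shMETTL3 libraries against 10.3 in shGFP, and 3.1 and 2.2 in H1299 shMETTL3 libraries against 3.3 in shGFP.

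Of the genes named for interferon induction, IFI6, a small protein of mitochondria and the endoplasmic reticulum, had 15.7 and 12.5 in A549 shMETTL3 libraries against 11.1 in shGFP, and 23.6 and 25.4 in H1299 shMETTL3 libraries against 18 in shGFP. IFI35 had 164 and 180.3 in A549 shMETTL3 libraries against 149.7 in shGFP, and 142 and 135 in H1299 shMETTL3 libraries against 116 in shGFP. Both genes lay above control in all 4 knockdown libraries, by at most 0.47 on the log2 scale. IFI44 had 0.71 and 4.06 in A549 shMETTL3 libraries on the 2 sides of 1.58 in shGFP, and 8 and 6.2 in H1299 shMETTL3 libraries against 5.3 in shGFP. IFI44L and IFI27 had at most 2.14 units in any library.

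PARP14, PARP9 and DTX3L act in ADP-ribosylation and ubiquitylation downstream of interferon. PARP14 stood at 652 and 591 in A549 shMETTL3 libraries 1 and 2, against 522 in shGFP, and at 373 and 311 in H1299 shMETTL3 libraries, against 278 in shGFP, all 4 above control. DTX3L, the ubiquitin ligase that pairs with PARP9, had 382 and 284 in A549 shMETTL3 libraries against 299 in shGFP, and 158 and 116 in H1299 shMETTL3 libraries against 121 in shGFP. PARP9 had 30 and 22.5 in A549 shMETTL3 libraries against 22.9 in shGFP, and 17.6 and 13.8 in H1299 shMETTL3 libraries against 12.7 in shGFP. For DTX3L and PARP9 library 1 was above the control in both lines and A549 library 2 slightly below it; the genes are neighbours on opposite strands, and whether counting used the strand is not stated.

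Of the further restriction factors, TRIM22, a ubiquitin ligase active against retroviruses, stood at 11.1 and 7.81 in A549 shMETTL3 libraries 1 and 2, against 4.74 in shGFP (31, 25 and 18 reads). The limma change was 0.85 (SE 0.43, adjusted p = 1), and in H1299 the gene had 0 and 3 reads in shMETTL3 libraries against 0 in shGFP. SAMD9, a restriction factor for poxviruses, had 56.8 and 40.6 in A549 shMETTL3 libraries against 39.2 in shGFP, and 66.2 and 33.8 in H1299 shMETTL3 libraries on the 2 sides of 42 in shGFP. Its paralog SAMD9L had 5 and 3.13 in A549 shMETTL3 libraries against 3.16 in shGFP, and 5.3 and 3.6 in H1299 shMETTL3 libraries against 2.9 in shGFP.

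In antigen processing, PSMB8, a catalytic subunit of the immunoproteasome, stood at 78.9 and 87.5 in A549 shMETTL3 libraries 1 and 2, against 69.2 in shGFP, and at 164 and 172 in H1299 shMETTL3 libraries, against 132 in shGFP. All 4 knockdown libraries lay above control, with library 2 higher than library 1 in each line, and the limma change over both lines was 0.30 (SE 0.13, adjusted p = 1). PSMB9, another such subunit, had 64.3 and 81.6 in A549 shMETTL3 libraries on the 2 sides of 74.0 in shGFP, and 88.2 and 82.2 in H1299 shMETTL3 libraries against 68 in shGFP. TAP1, the peptide transporter that shares a promoter region with PSMB9, had 175 and 210.3 in A549 shMETTL3 libraries around 183 in shGFP, and 154 and 182 in H1299 shMETTL3 libraries around 164.5 in shGFP. The chemokine CXCL10 had 1, 4 and 2 reads in A549 libraries shMETTL3 1, shMETTL3 2 and shGFP.

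**Figure D3:**
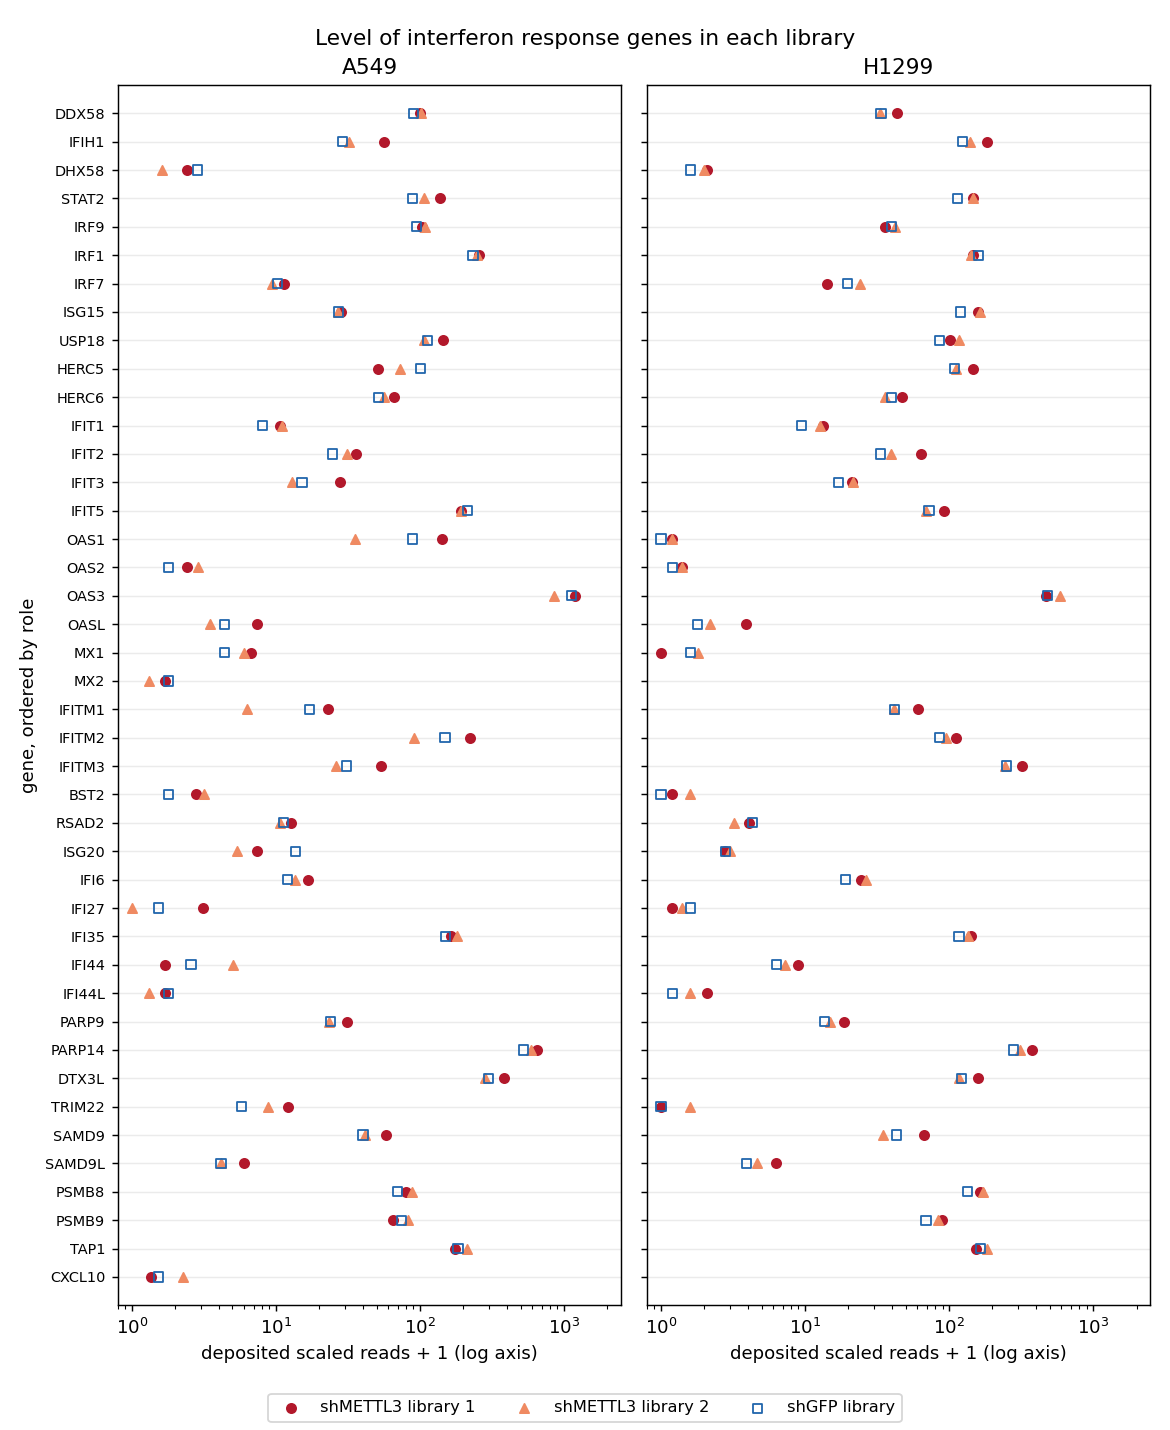
Normalised value of every member on a log axis (value + 1) in the shMETTL3 1, shMETTL3 2 and shGFP libraries of A549 and H1299; each point is 1 library. OAS1 stands between 34.7 and 142.5 in A549 and at most 0.2 in H1299, and ISG15 between 25.9 and 27.1 in A549 and between 119 and 163 in H1299.

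Basal levels, from the single shGFP library of each line, are given side by side because the tables were scaled separately, and no test was made between them. OAS1 had 332 reads in A549 and 0 in H1299, and TRIM22 had 18 and 0. Members with the larger value in H1299 included IFITM3 (29.7 in A549, 249 in H1299), ISG15 (26.3 and 119), IFIH1 (28.2 and 122) and PSMB8 (69.2 and 132). Members with the larger value in A549 included OAS3 (1126 in A549, 479 in H1299), DTX3L (299 and 121), IFIT5 (212 and 71.6), DDX58 (89.2 and 32.7) and IRF9 (94.2 and 39). Neither line had the larger value throughout: of the IFITM genes, IFITM2 had 148 in A549 and 84.5 in H1299, whereas IFITM1 had 16.1 in A549 and 41 in H1299. A mean of at least 1 was reached by 38 members in A549 and 32 in H1299, and MX2, IFI27, IFI44L and CXCL10 in A549 and DHX58, OAS1, OAS2, MX1, BST2, IFI27, IFI44L and TRIM22 in H1299 lay below it. RNA45S5 took 23.1% of the H1299 shGFP reads and 0.266% of the A549 shGFP reads, and its part in these levels was not tested.

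Library 1 was above library 2 in both lines in 15 of 32 members (46.9%), where 37.8% of all genes were, and below it in both lines in 3 (IRF9, PSMB8 and TAP1), where 20.7% were. In a fit of all 6 libraries with line and number as terms, limma called 257 of 15546 genes (1.65%), 1.23% higher and 0.425% lower in number 1, and 0 of 32 members. The count of 257 fell to 39 with no filter on low values and to 0 with no intensity trend. At an unadjusted p under 0.05 it called 7 of 32 members, a share near the 18.6% of all genes called. These were IFITM1, IFITM2, IFITM3, DTX3L, IFIH1, SAMD9 and OASL, all higher in number 1, where 13.2% of all genes were called in that direction. Their test values are given because of that p, which was seen first. IFITM3 was 0.71 (SE 0.17) higher on the log2 scale in number 1 than in number 2, with an adjusted p of 0.0783, and IFITM1 1.22 (SE 0.33), with an adjusted p of 0.0990 by limma. SAMD9 was 0.71 (SE 0.18) higher, with an adjusted p of 0.0894 by limma.

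Calls appeared when 1 knockdown library was left out, but number 1 or number 2 is then a single library that is fitted exactly, is assumed to vary like the other groups and adds nothing to the spread, and these calls are no support for a difference. Without H1299 library 1 limma called 4 of 32 members (IFIH1, IFITM1, IFITM2 and IFITM3) and 8.86% of all genes. Without H1299 library 2 it called 3 (IFITM1, IFITM2 and IFITM3) and 4.9% of all genes. SAMD9 alone was called without A549 library 1, beside 4.62% of all genes, and without A549 library 2, beside 3.11%. The lowest adjusted p was 6.41e-05, for IFITM1 without H1299 library 2, where the difference of the numbers rests on A549. Genes outside the members were called in the fit of all 6 libraries. STAT3, a transcription factor for interleukin 6 and interferon, had 904 and 576 in A549 shMETTL3 libraries 1 and 2, against 647 in shGFP, and 262 and 167 in H1299 shMETTL3 libraries against 196 in shGFP. It was 0.65 (SE 0.11) higher in number 1 than in number 2, with an adjusted p of 0.0322 by limma. The epithelial keratin KRT8 had 12213 and 8420 in A549 shMETTL3 libraries 1 and 2, against 8906 in shGFP, and 189 and 113 in H1299 shMETTL3 libraries against 161 in shGFP. It was 0.64 (SE 0.13) higher in number 1 than in number 2, with an adjusted p of 0.0461 by limma. Both calls were lost with no filter on low values and with no intensity trend, and that of KRT8 also with a pseudocount of 0.1, with median centring and without H1299 library 2. In A549 the epithelial genes EPCAM (75.4 and 14.1 in shMETTL3 libraries 1 and 2, against 22.6 in shGFP) and KRT19 (1396 and 427, against 422 in shGFP) also stood highest in library 1. Of the 8 epithelial markers measured in A549, 5 stood above shGFP in library 1. The other 3, KRT7, VIM and SFTPB, stood below shGFP in both knockdown libraries and lowest in library 1 (KRT7 15220 and 16843, against 17021 in shGFP). The part of these differences in the member values was not tested.

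**Figure D4:**
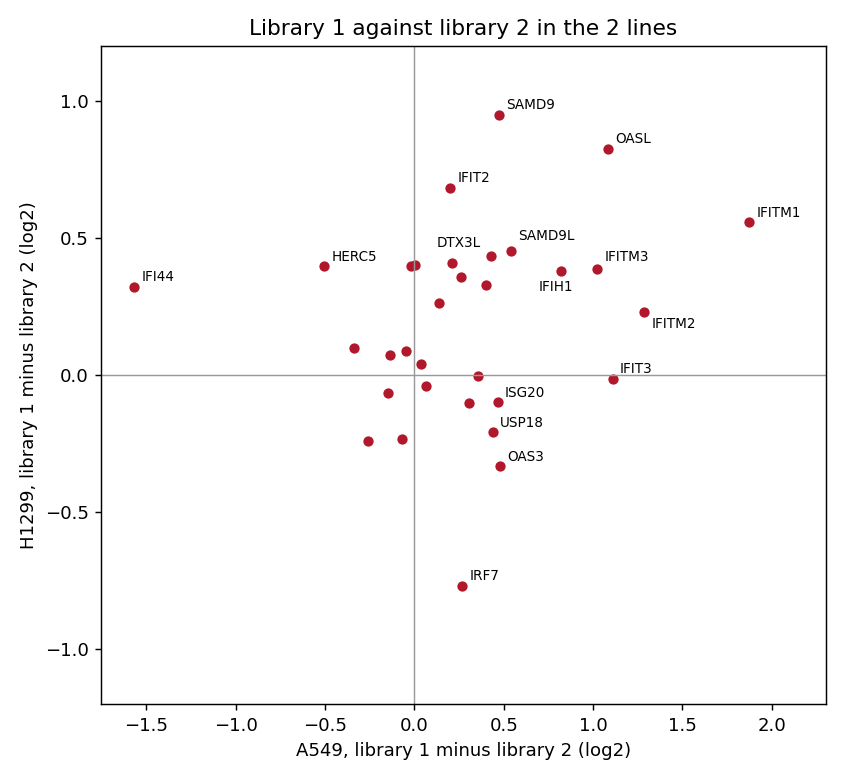
Log2 difference of shMETTL3 library 1 minus library 2 in A549 (horizontal axis) and in H1299 (vertical axis) for the 32 members measured in both lines; each point is 1 gene. The upper right field holds the 15 members with library 1 above library 2 in both lines, IFITM1, IFITM2, IFITM3, OASL and SAMD9 among them, and the lower left field holds IRF9, PSMB8 and TAP1.

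The rest of the pathway was read from 7 lists of other genes. Of 24 interferon ligand symbols, 7 were in the A549 table and 3 in the H1299 table. IFNB1 had 0.36 and 0.31 units in A549 shMETTL3 libraries and 0 in shGFP, or 1 read, 1 read and 0 reads. IFNE, an epithelial type I interferon, was the only ligand with more than a few reads, at 18.6 and 18.4 in A549 shMETTL3 libraries against 20.8 in shGFP, and at 1.3 and 0.2 in H1299 shMETTL3 libraries against 0.6 in shGFP. Of the receptors and their kinases, 4 of 9 in A549 and 1 of 9 in H1299 stood above shGFP in both knockdown libraries. The counts were 5 of 9 and 4 of 6 for the other STAT and IRF factors, and 5 of 18 and 6 of 18 for nucleic acid sensing and relay. The share of all genes that did so was 27.2% in A549 and 30.6% in H1299. As given above, limma called 0% of all genes against shGFP in either line, these lists included.

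Of other interferon-stimulated genes, 25 of 50 in A549 and 25 of 46 in H1299 stood above shGFP in both knockdown libraries. For MHC class I and antigen processing the counts were 11 of 18 and 12 of 18, where 27.2% of all genes in A549 and 30.6% in H1299 did so. In H1299 library 1 alone 17 of these 18 stood above shGFP, where 61.7% of all genes did. B2M, the light chain of MHC class I, had 2125 and 2058 in A549 shMETTL3 libraries 1 and 2, against 1755 in shGFP, and 874 and 662 in H1299 shMETTL3 libraries against 577 in shGFP, and it was named after its values were seen. GBP2, an interferon-induced GTPase, had 12 and 2.8 in H1299 shMETTL3 libraries on opposite sides of 5.5 in shGFP (limma change 0.11, SE 0.74, adjusted p = 1), and 28.2 and 22.2 in A549 shMETTL3 libraries against 17.1 in shGFP. Of 10 genes listed as brakes on the pathway, a list that also holds the receptor subunit IFNAR2 and the nuclease ISG20L2, 3 in A549 and 5 in H1299 stood above shGFP in both. SOCS3, the feedback inhibitor of receptor kinases, stood at 119 and 140.3 in A549 shMETTL3 libraries, against 265 in shGFP, a limma change of -1.03 (SE 0.22, adjusted p = 1). In H1299 it stood at 281 and 217 in shMETTL3 libraries, against 312 in shGFP, so that all 4 knockdown libraries lay below control, where 9.05% of all genes did so. The brakes had no common side. PTPN2 and PTPN11 also lay below control in all 4, whereas TRIM21 and SOCS1 (4 to 5 reads in A549) lay above it in all 4.

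**Figure D5:**
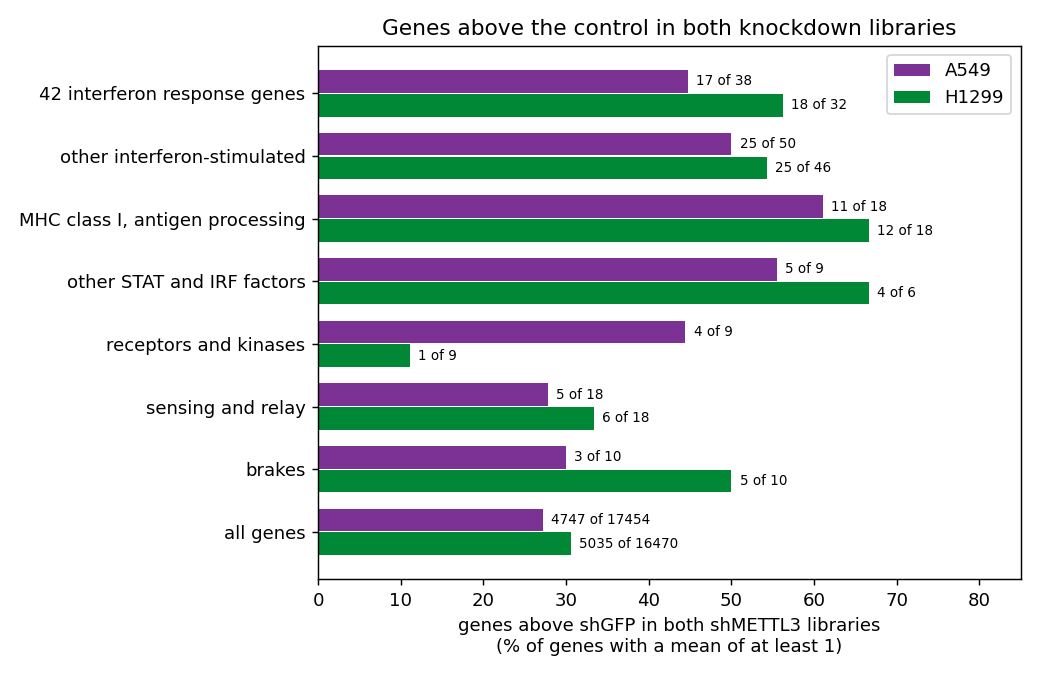
Percent of measured genes that stood above shGFP in both shMETTL3 libraries, for the members, the other pathway lists except the ligands and all genes, in A549 and H1299; bars start at 0. The members reach 44.7% in A549 and 56.3% in H1299, beside 27.2% and 30.6% of all genes.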

How the data were processed

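The deposited tables hold a normalised signal per gene. The authors' values are whole reads over a library factor (2.8, 3.2 and 3.8 for A549 shMETTL3 1, shMETTL3 2 and shGFP, and 4.5, 5 and 5.1 for H1299), and 100% of values fitted this within rounding. What the factors were based on is not given in the sources used here. Poly(A) RNA was made into libraries with a stranded kit, per the labels' protocols. Bowtie, TopHat and hg19 are named in the submitters' processing notes, and the counter, annotation and strand setting are not given in the sources used here.

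Differences were taken on log2(value + 1), which understates changes of genes with low values. limma 3.58.1 in R 4.3.3 (lmFit, eBayes with an intensity trend) tested shMETTL3 against shGFP, among genes with a mean of at least 1 in each line used. p-values were Benjamini-Hochberg adjusted over all genes tested, with a threshold of 0.05. Within a line 1 degree of freedom remained, and the spread of the single shGFP library was taken from that of the knockdown pair. All 6 libraries entered a fit with a line term for both lines, the interaction of line and knockdown, and number 1 against number 2. The count tests edgeR 4.0.16 and DESeq2 1.42.0 were run on the reads of A549 only. The H1299 values are rounded more coarsely, by up to 0.255 reads against 0.019 in A549. That rounding still leaves whole reads apart, but count tests were not run there. The 2 tables were scaled separately, so no level was tested between lines. The code was checked on simulated data.

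Every member was named. Test values were given for members and pathway genes with a mean of at least 5 that were at least 1.5-fold from shGFP in both libraries of a line, in the same or in opposite directions, and for METTL3. Test values of other genes were chosen after their values were seen. The members and lists were chosen with earlier results of these data known. The m6A peak lists and the input samples were not used here.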

Additional observations from a re-analysis of the deposited data

Results flagged for a closer look

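HERC5 and IRF1 drew attention because every knockdown library of one line lay on one side of shGFP and every knockdown library of the other line on the opposite side. For HERC5, the ISG15 ligase, the H1299 change minus the A549 change was 0.95 on the log2 scale, from 0.43 and 0.03 in H1299 libraries 1 and 2 and -0.97 and -0.47 in A549 libraries 1 and 2. For IRF1, the transcription factor, it was -0.27, from -0.13 and -0.17 in H1299 and 0.13 and 0.09 in A549. The adjusted p of the interaction was 1 for each by limma, and neither was called. Of all genes tested, 6.58% had the HERC5 pattern and 5.11% the IRF1 pattern, so that 1 of 32 members with each is near or below the background.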

How the results depend on the processing

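The count of 0 members called by limma against shGFP in A549, in H1299, over both lines and in the interaction held under every alternative run, including leaving out each shMETTL3 library (0 to 0). The single shGFP libraries, on which every difference rests, were never left out. With 1 residual degree of freedom in a line and single controls, a 0 does not show that values are alike. For number 1 against number 2, leaving out a shMETTL3 library gave 1 to 4 members in place of 0, with 1 number then a single library whose spread is taken from other groups. Members higher in both libraries numbered 17 in A549 and 20 to 31 with 1 library alone, 31 in library 1. In H1299 they numbered 18, and 23 to 25 with 1 library. Members past 1.5-fold numbered 3 in A549, 0 at 2-fold, and 9 to 12 with 1 library. Of all A549 genes 2.44% passed at 1.5-fold, 0.4% at 2-fold, and 10.9 to 14.3% with 1 library. In H1299 the members past 1.5-fold numbered 0, and 0 to 4 with 1 library. Of all H1299 genes 1.2% were higher and 0.48% lower by 1.5-fold in both libraries. With 1 library the rule is looser, and the share of all H1299 genes for it is not given here. The 0 to 4 members therefore have no background beside them. OAS1 in A549 reversed to 0.01 with edgeR (0.0084) and DESeq2 (0.0091), and GBP2 in H1299 to -0.77 without library 1. With the replicate block, number as a term, 0 members were called over both lines, and METTL3 passed (adjusted p = 0.0173), as it did with median centring (0.0448). The numbers are not shown to pair the libraries: over 15546 genes library 1 minus library 2 correlated at 0.237 between lines, in 2 pairs only. In the number test, STAT3 was lost with no filter or no trend, and KRT8 with those, a pseudocount of 0.1, median centring or H1299 library 2 left out. All genes called there numbered 257, but 39 with no filter, 0 with no trend and 484 to 1377 without 1 library. The causes were not tested. The count tests in H1299 and across lines, and the overlap of members with m6A peaks, were not run.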

Other observations

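Over the 32 members measured in both lines, the mean log2 change correlated between A549 and H1299 with a Pearson r of 0.324, and over all 15546 genes with 0.193. These are correlations across genes, which are not independent replicates, and each line's mean change rests on 1 shGFP library. A second promoter motif, the gamma-activated site (letters TTCNNNGAA, a palindrome), occurred in at least 1 promoter of 11 of 33 members (33.3%) and of 9.38% of all genes with a promoter. It was present in IRF1, IRF9, OAS1 and IFI35, none of which held the ISRE letters, and in MX1, IFITM1, BST2, IFI27, PARP14, PSMB8 and TAP1, which held both, in TAP1 in separate promoters.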
